A study of Neurospora crassa with 10 samples.

Results

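Linkage group VII of the filamentous fungus Neurospora crassa is described here as a map of its listed genes and its stretches of H3K9me3, trimethylated lysine 9 of histone H3. Its members were all rows of the deposited wild-type lists that lie on supercontig 7 of the assembly, 1047 of 9729 genes and 46 of 346 domains. The study as a whole tagged newly made histone H3 with FLAG to follow its exchange in germinated conidia, in 10 libraries labelled as 5 groups of 2. The tested strains lacked dim-2 (replaced by hph), dim-5 (replaced by bar), hda-1 (replaced by hph) or hpo (replaced by hph), and the wild-type control carried none of these deletions. In all groups the vvd promoter, which blue light switches on, drove the tagged histone at the his-3 locus, and all cultures grew for 18 h in the dark at 32 °C and then received 100 mM hydroxyurea for 3 h before 2 min of 465 nm light. The labels leave the mating type open for the dim-5 and hpo deletions and give it as mat a for the other groups. Values of these libraries were not analysed here, so nothing below compares strains. The expression lists and domains are both labelled wild type, but the sources used here do not give the cultures, replicates or depth behind them.

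In Neurospora, constitutive heterochromatin forms on AT-rich DNA left by repeat-induced point mutation, a process that mutates duplicated sequence in the sexual cycle. The methyltransferase DIM-5 places H3K9me3 on this DNA, heterochromatin protein 1 (the product of hpo) binds the mark, and the DNA methyltransferase DIM-2 then methylates cytosines. The centromeres of this fungus lie in long stretches of such DNA. Whether the longest domain of VII is its centromere was not tested, since the files hold no centromere positions and no sequence.

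The deposited lists sort genes into 4 classes of wild-type expression, and their names were taken to rise with expression, although the labels do not say so for the middle lists. They are called here the lowest (lowest 25%), lower-middle (25-50%), upper-middle (50-75%) and highest (highest 25%) lists. They give no expression value, so the measurement of each gene is the list it stands in and its place. Over the whole genome each list holds 25% of the genes. Start and end of all 1047 genes on VII were the same as those of the 1047 protein-coding genes of VII in the RefSeq table of assembly NC12, from which names were taken. Positions are given for that assembly, counting from 1. Intervals around shares are Wilson 95% intervals. They cover counting error only and treat genes as independent, and since neighbouring genes often share a list they can be too narrow. No difference between VII and the rest of the genome was tested, because 1 chromosome gives no replicate.

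Linkage group VII carried more heterochromatin and more weakly expressed genes than the rest of the genome. Of its 1047 genes, 337 belonged to the lowest list (32.2%, interval 29.4 to 35.1). The lower-middle list took 241 genes (23.0%), the upper-middle 237 (22.6%) and the highest 232 (22.2%, interval 19.7 to 24.8). Of the 8682 genes on the other 6 linkage groups, 24.1% were in the lowest list (23.3 to 25.1) and 25.4% in the highest list (24.4 to 26.3). The share of the lowest list was the highest of the 7 linkage groups, ahead of 28.5% on VI, whose interval of 25.8 to 31.4 overlaps that of VII, and it stood furthest from the 20.1% on I. The share of the highest list was the second lowest, above the 20.3% on VI. Leaving out any 1 of the other linkage groups kept the difference in the lowest list between 6.56 and 8.61 percentage points, against 8.05 with all of them.

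Domains covered 863.7 kb, or 20.3%, of the 4255.2 kb between the first base and the last listed feature of VII. On the other linkage groups they covered 15.7% in all, with 14.4% on V the least and 17.9% on II the most. The longest domains held most of this difference. Without the longest domain of each linkage group, a comparison added after the data were examined, domains covered 13.2% of VII and 12.5% of the rest. VII also held 10.8 domains per Mb, against 8.29 per Mb on the other linkage groups, while the median domain length was 9.6 kb on VII and 9.6 kb elsewhere.

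**Figure D1:**
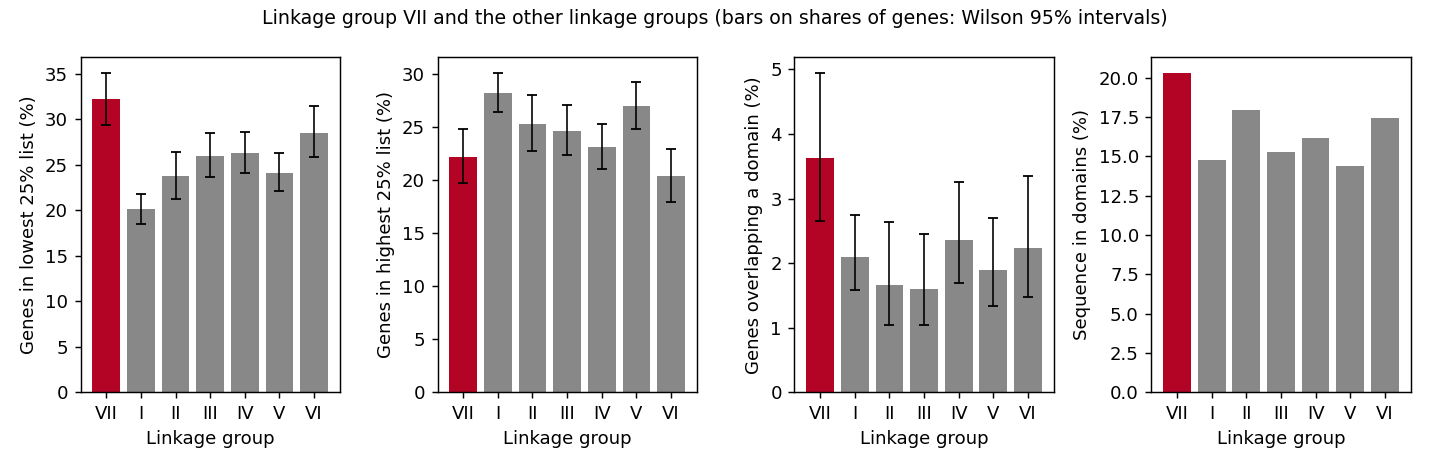
Bars give, for linkage group VII (red) and each other linkage group (grey), the percent of genes in the lowest and in the highest list, the percent of genes that overlap a domain and the percent of sequence in domains, with Wilson 95% intervals on the shares of genes. VII has the tallest bar for the lowest list (32.2%), for overlap (3.63%) and for domain cover (20.3%), and the second shortest for the highest list (22.2%).

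Outside its domains VII held somewhat more genes per Mb than the other linkage groups. It had 307 genes per Mb of domain-free sequence, against 283 per Mb on the other linkage groups, where the range was 279 on III to 294 on IV. Genes took up 68.8% of domain-free sequence on VII and 66.9% on the other linkage groups together, of which IV had the most, 68.5%. Of domain sequence they took up 1.74% on VII and 1.73% elsewhere. Median gene length was 2034 bp on VII and 2143 bp on the other linkage groups. Neighbouring genes with no domain between them lay a median of 617.5 bp apart on VII and 595 bp apart elsewhere. Late locus tags, numbered from NCU10000 upwards, went to 12.7% of genes on VII and 9.46% of genes elsewhere. Without those genes the density was 268 per Mb on VII and 257 per Mb elsewhere, a difference of 11.4 per Mb in place of 23.8.

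The domains of VII ranged from 0.6 kb to 349.2 kb. The longest, at 2134501 to 2483700, held 40.4% of all domain sequence on VII, and its centre lay 54.3% of the way along the linkage group. The next were 40.2 kb (1039501 to 1079700) and 34.8 kb (3405901 to 3440700), so the longest domain stood far apart from all others. Domains shorter than 3 kb numbered 11. Of the 46 domains, 18 overlapped no listed gene, 19 overlapped 1 gene, 8 overlapped 2 and 1 overlapped 3. Domains also stood at both outermost positions, from 1 to 1800 on the left and from 4235101 to 4255200 on the right.

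Gene density was lowest at the longest domain and at other places rich in heterochromatin. In the 17 full windows of 250 kb the number of genes ranged from 6 to 80 with a median of 66, and domain cover from 0% to 96.6% with a median of 11.5%. The window from 2250001 to 2500000, which the longest domain fills almost completely, held the 6 genes. The next lowest were 41 genes between 2000001 and 2250000, at 61.2% domain cover, and 46 genes between 1000001 and 1250000, at 37.6% cover. The window with 80 genes, from 750001 to 1000000, had 11.5% cover. In windows of 100 kb, 2 of 42 held no gene, and both lay wholly inside the longest domain.

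**Figure D2:**
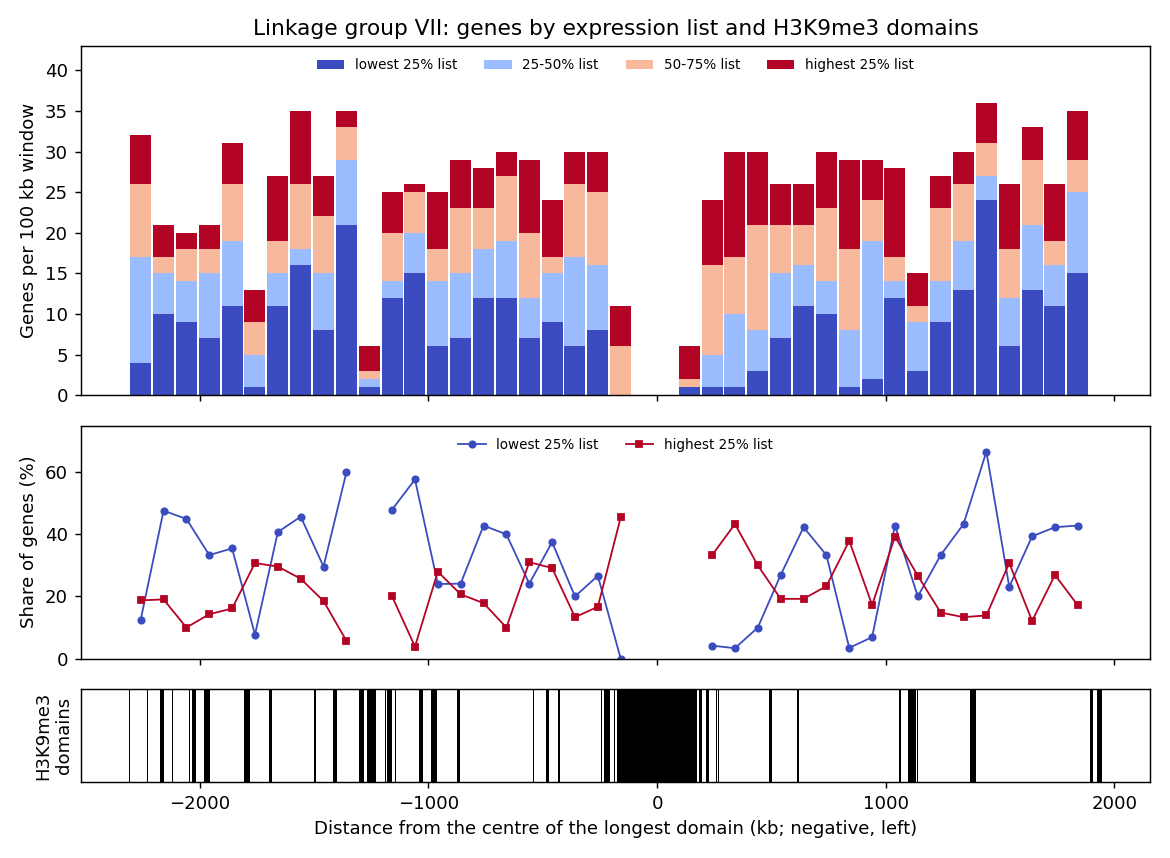
The upper panel stacks the genes of each expression list in windows of 100 kb, the middle panel gives the percent of genes in the lowest and highest lists for windows with at least 10 genes, and the lower panel draws the 46 domains to scale, all against distance in kb from the centre of the longest domain. Windows next to that domain hold few lowest-list genes, and 3 windows, 2 on the left and 1 on the right, have more than 50% of their genes in the lowest list.

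Weakly expressed genes were unevenly spread along VII. Among the 16 windows of 250 kb with at least 10 genes, the share of the lowest list ranged from 5.48% (4 of 73 genes, 2500001 to 2750000) to 50% (39 of 78 genes, 3500001 to 3750000), with a median of 33.0%. The same windows held the extremes of the highest list, 35.6% and 10.3%. Windows of the other linkage groups were not set beside these, so whether the spread is particular to VII was not tested. Windows of 100 kb gave wider extremes, but shares over fewer genes also vary more by counting error alone. Of 38 windows with at least 10 genes, 3 had more than 50% of genes in the lowest list: 21 of 35 genes between 900001 and 1000000, 15 of 26 between 1200001 and 1300000, and 24 of 36 between 3700001 and 3800000. Domain cover in these windows was 9.6%, 12.3% and 2.6%, against a median of 11.1% over the 42 full windows of 100 kb. Another 6 windows had under 10% in the lowest list. Of these, 4 lay right of the longest domain, between 2500001 and 2700000 and between 3100001 and 3300000, and the other 2 were at 500001 to 600000 and, reaching into the longest domain, at 2100001 to 2200000.

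The longest domain divides VII into a left side of 2134.5 kb with 555 genes and a right side of 1771.5 kb with 492 genes. The left side held 30 domains and the right side 15. Domain cover was 16.5% on the left and 9.14% on the right, and genes lay a median of 17.1 kb from a domain on the left and 54.6 kb on the right. On the left, 193 genes were in the lowest list (34.8%, interval 30.9 to 38.8) and 108 in the highest (19.5%, 16.4 to 23.0). On the right, 144 were in the lowest list (29.3%, 25.4 to 33.4) and 124 in the highest (25.2%, 21.6 to 29.2). The intervals of the sides overlap for both lists. Gene density over all sequence was 260 per Mb on the left and 278 per Mb on the right, and outside domains it was 309 per Mb on the left and 304 per Mb on the right. Median gene length was 1935 bp on the left and 2145.5 bp on the right.

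The genes that border the longest domain were mostly well expressed. On the left edge, NCU02450 of the upper-middle list (2132769 to 2135113) reached into the domain by 613 bp, and on the right edge NCU02438 of the highest list (2482904 to 2485201) reached in by 797 bp. No listed gene lay completely inside, and these bases were the only sequence of listed protein-coding genes in the domain, 0.404% of its length. The next genes to the left were NCU02452 (highest list, 2209 bp from the edge), NCU02451 (upper-middle list, 2234 bp), NCU02453 (highest list, 6461 bp) and NCU02455 (highest list, 11832 bp). NCU02452 and NCU02451 overlap each other, so their reads may not be separable. To the right followed NCU11258 (highest list, 2560 bp), hH2A (highest list, 3491 bp), NCU02436 (lowest list, 5814 bp) and hH2B (highest list, 6907 bp). NCU11258 and hH2A also overlap each other, so the same limit holds for them. hH2A and hH2B encode the core histones H2A and H2B. Of these 10 genes 1 was in the lowest list, NCU02450 and NCU02451 were in the upper-middle list and the others in the highest list. Over all of VII, 22.2% of genes were in the highest list.

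The right flank of the longest domain held few lowest-list genes, and the left flank had a smaller share of them than VII as a whole. Within 200 kb of the right edge, 2 of 55 genes were in the lowest list (3.64%, interval 1.00 to 12.3) and 24 in the highest (43.6%, 31.4 to 56.7). Within 200 kb of the left edge, 11 of 61 genes were in the lowest list (18.0%, 10.4 to 29.5) and 14 in the highest (23.0%, 14.2 to 34.9). Both shares of the lowest list lay below the 32.2% of VII as a whole. The 200 kb flanks of the longest domain on each of the other linkage groups, 12 in all, had from 9.09% to 46.3% of genes in the lowest list, with a median of 22.9%. In the highest list they had from 16.9% to 46.5%, with a median of 33.3%. The right flank of VII therefore had the lowest share of lowest-list genes among the 14 flanks, next to the right flank of I with 2 of 22 genes. Its share of the highest list was the third highest. The left flank of VII ranked 7 of 14 counted from the lowest share of lowest-list genes. It ranked 10 of 14 counted from the highest share of highest-list genes. Within 400 kb the right flank had 11 of 111 genes in the lowest list (9.91%) and the left flank 26 of 116 (22.4%).

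**Figure D3:**
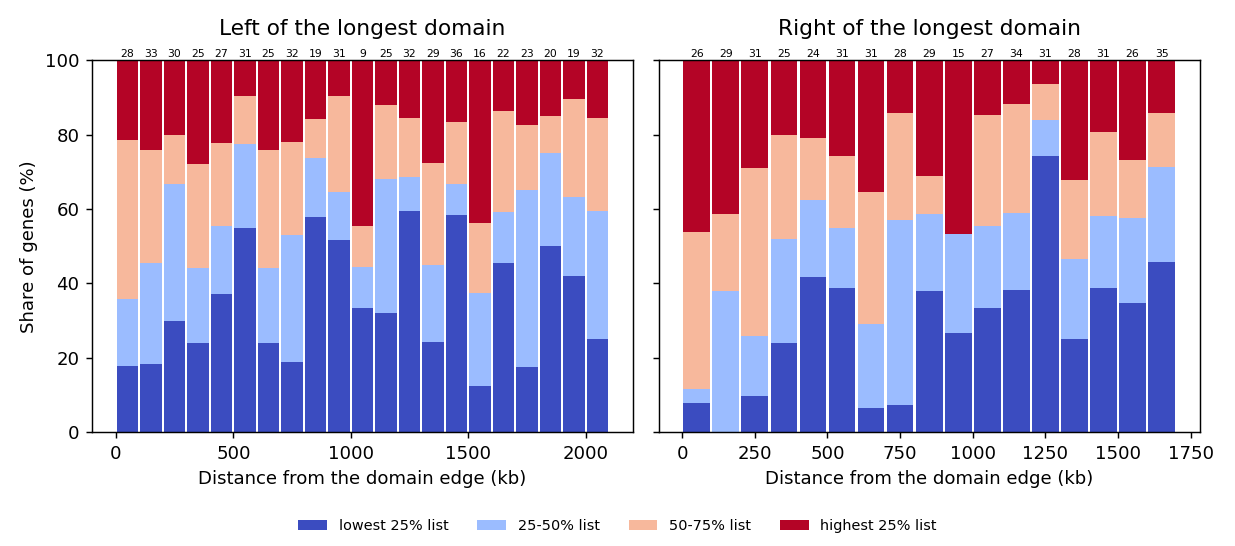
Stacked bars give the percent of genes in each expression list in steps of 100 kb away from the edges of the longest domain, left and right, with the number of genes above each bar. On the right the first 3 steps hold 2 of 26, 0 of 29 and 3 of 31 lowest-list genes, while the step from 1200 to 1300 kb holds 23 of 31.

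The low share on the right did not extend to the whole side. From 400 to 600 kb beyond the right edge, 10 of 24 and then 12 of 31 genes were in the lowest list, from 600 to 800 kb 2 of 31 and 2 of 28, and from 1200 to 1300 kb 23 of 31. On the left the step from 500 to 600 kb had 17 of 31 genes in the lowest list and the step next to the domain 5 of 28. The share thus went up and down along both sides in place of a steady rise away from the domain.

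Stretches between domains differed as much. The 45 domain-free stretches of VII ranged from 1.2 kb to 499.5 kb, with a median of 38.1 kb, and 5 of them held no gene midpoint. Each of the other linkage groups had a longer median stretch, between 46.5 kb on VI and 70.8 kb on II, and a longer longest stretch, between 508.8 kb on VI and 699 kb on I. Among the 21 stretches of at least 50 kb on VII, which hold 916 genes, the share of the lowest list ran from 6.15% to 61.1% with a median of 32.6%. At the low end stood the stretch from 2579401 to 2796900 on the right, with 4 of 65 genes in the lowest list and 22 in the highest. It contains wc-1, mak-2 (a mitogen-activated protein kinase gene) and ilv-5. Next was the stretch from 1801 to 78900 at the left end, with 2 of 25. At the high end stood 1166701 to 1268700 with 22 of 36 genes in the lowest list, 704101 to 771300 with 14 of 23, 909601 to 1007100 with 21 of 36, and 193201 to 259500 with 9 of 18, all on the left.

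**Figure D4:**
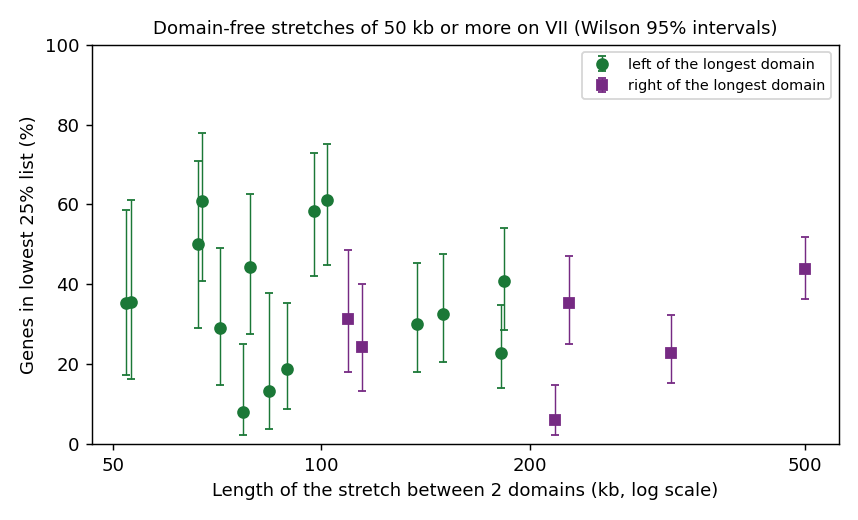
Each point is a domain-free stretch of at least 50 kb on VII, placed by its length in kb on a log axis and by the percent of its genes in the lowest list, with Wilson 95% intervals, in green left and in purple right of the longest domain. The stretch of 499.5 kb holds 43.9% lowest-list genes and that of 217.5 kb holds 6.15%.

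The longest stretch without a domain was also rich in weakly expressed genes. It ran from 3703801 to 4203300, held 157 genes and had 69 of them in the lowest list (43.9%) and 31 in the highest (19.7%). The gene of VII furthest from any domain lies in it, NCU10954 at 3953771 to 3954145, at 249 kb and in the lowest list. The second longest stretch, 2931901 to 3252000, had 21 of 92 genes in the lowest list (22.8%) and 23 in the highest, and it holds the clock gene frq, the ATP synthase gene oli and dim-2.

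Distance to heterochromatin hardly separated the expression lists on VII. Genes of the lowest list lay a median of 26.2 kb from a domain (interquartile range 10.7 to 52.4). The medians were 30.8 kb for the lower-middle list, 28.9 kb for the upper-middle and 26.5 kb for the highest (9.81 to 70.5). On the other linkage groups the medians were 33.7 kb, 39.7 kb, 42.3 kb and 45.1 kb in the same order. The highest list thus lay 0.32 kb further out than the lowest list on VII and 11.4 kb further out on the other linkage groups together. Among single linkage groups this difference ran from -2.64 kb on I to 24.6 kb on III. Within VII it was 0.311 kb left and 3.93 kb right of the longest domain. With domains under 3 kb left out it turned to -1.38 kb, so its sign on VII depends on the short domains.

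**Figure D5:**
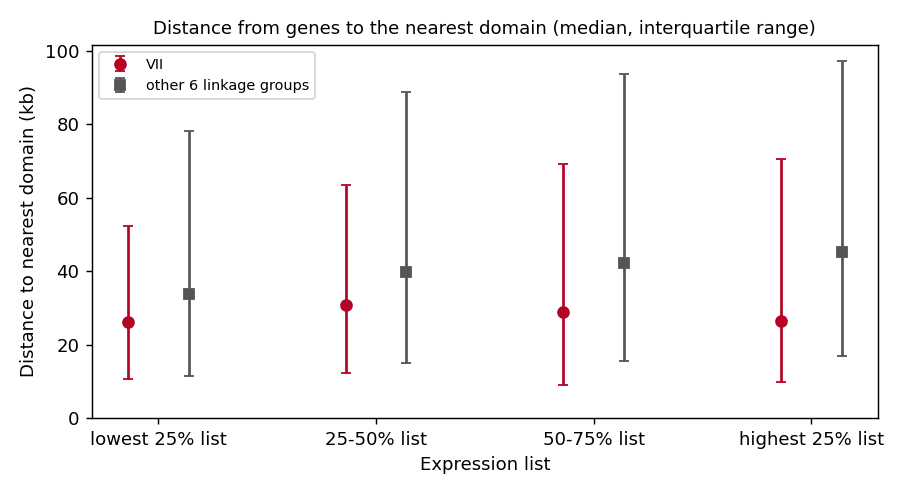
Points give the median distance in kb from genes to the nearest domain in each expression list, with bars for the interquartile range, for VII (red circles) and the other 6 linkage groups pooled (grey squares). On VII the medians lie between 26.2 and 30.8 kb with no rise across the lists, and on the other linkage groups they are 33.7, 39.7, 42.3 and 45.1 kb from the lowest to the highest list.

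In bins of distance, the share of the lowest list on VII was 28.9% of the 38 overlapping genes (17.0 to 44.8). It was 35.0% of 123 genes that lay outside but within 5 kb (27.1 to 43.7), 32.6% of 267 genes at 5 to 20 kb, 37.1% of 286 at 20 to 50 kb and 27% of 333 at 50 kb or more (22.5 to 32.0). On the other linkage groups it was 31.2% (24.8 to 38.5), 29.5%, 27.2%, 23.4% and 21.7% in the same bins. Among overlapping genes the interval of VII holds that of the other linkage groups, so no difference can be read there. The share on VII was higher in the 4 bins outside domains. Only at 20 to 50 kb did the intervals stay apart, 31.7 to 42.8 on VII against 21.7 to 25.2 elsewhere. They overlapped under 5 kb, at 5 to 20 kb and at 50 kb or more. The nearest genes wholly beyond a domain edge came from all lists. A gene that crosses the edge was passed over, and some of the genes counted lay across another domain. The 90 edges with a gene beyond them led to 82 genes, since some genes are the nearest at more than 1 edge. Of these, 28 were in the lowest list (34.1%), 17 in the lower-middle (20.7%), 16 in the upper-middle (19.5%) and 21 in the highest (25.6%), which is close to the 32.2%, 23.0%, 22.6% and 22.2% of all genes on VII.

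Domains reached 1 bp or more into 38 genes of VII, or 3.63% (interval 2.66 to 4.94). Over the genome 2.17% of genes did, and 173 of 8682 genes, 1.99% (1.72 to 2.31), did on the other linkage groups. The highest share among those was 2.36% on IV. On VII they were 11 lowest-list genes (3.26%, 1.83 to 5.75), 8 lower-middle (3.32%), 10 upper-middle (4.22%) and 9 highest-list genes (3.88%, 2.05 to 7.21), and these intervals overlap. Of them, 25 lay left and 13 right of the longest domain, 4.50% and 2.64% of the genes of each side.

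Most overlaps were shallow. The median gene touched by a domain had 12% of its length covered, and 6 genes had at least 50%, which is 0.573% of the genes on VII against 0.530% elsewhere and 0.534% over the genome. The difference between VII and the rest thus came from shallow overlaps. NCU06019 (lowest list, 2065099 to 2066453) was the only gene covered completely. NCU02434 of the upper-middle list (2491853 to 2494970) had the most bases in a domain, 2870 bp or 92%, and it overlaps the histone gene hH2B over 483 bp, so their reads may not be separable. The others with at least 50% were NCU02350 (lowest list, 78.2%), NCU09306 (lowest list, 64.2%), NCU11300 (lower-middle list, 63.5%) and NCU06955 (lowest list, 54.9%). NCU09306 is the first listed gene of VII, at 950 to 2274. The last, NCU05903 of the lowest list at 4234257 to 4235509, lay in a domain over 409 bp. Domains also reached by 730 bp into NCU06931, by 652 bp into NCU05899 and by 528 bp into NCU02416. No gene of the highest list was covered over more than 34.7%, the value of NCU02438.

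Consecutive lowest-list genes formed many runs on VII. Of its 337 lowest-list genes, 94 stood in 11 runs of 5 or more (27.9%), against 437 of 2096 on the other linkage groups (20.8%). For the highest list the same count was 6 of 232 genes on VII (2.59%) and 122 of 2201 elsewhere (5.54%). Runs were counted on a chromosome richer in lowest-list genes, and the share that this alone gives was not separated. The longest run had 17 genes, from NCU06951 to NCU09582 (879701 to 933187), and spanned a domain of 20.1 kb, while the longest run elsewhere had 48 genes. A run of 13 genes went from NCU06895 to NCU06905 (692576 to 721156) around a domain of 1.2 kb. On the right, 12 genes from NCU05758 to NCU17271 (3727404 to 3750205) lay in the longest domain-free stretch, and the first of them is pre-2, a pheromone receptor gene.

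The other runs of at least 6 lowest-list genes went from NCU17185 to NCU09411 (9 genes), from NCU06165 to NCU06157 (9 genes), and over 6 genes each from NCU06885 to NCU06889, NCU11253 to NCU02195, NCU17263 to NCU17264 and NCU05821 to NCU05825. The genes of the last run had a median distance of 241 kb to a domain. The run from NCU11253 to NCU02195 spanned a domain of 7.5 kb, and the remaining 5 of these runs spanned none. The only run of at least 5 highest-list genes was NCU02425 to NCU02420 (6 genes, 2536912 to 2559952), which begins 711 bp beyond a domain in the right flank of the longest domain. Adjacent genes shared a list in 359 of 1046 pairs on VII (34.3%, interval 31.5 to 37.3) and in 32.7% of 8676 pairs elsewhere (31.7 to 33.7).

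Of 77 genes in lists by function, 66 were matched by symbol and 23 of those lie on VII. Over the genome 1047 of 9729 genes do. The 23 include the 7 genes of the quinic acid cluster, which lies on VII, and 5 from a list of biosynthesis markers of VII. The count is therefore no measure of enrichment. The lists were drawn up knowing earlier results, so their counts are descriptions. The DNA methyltransferase gene dim-2 (3189797 to 3195483), the only matched heterochromatin gene on VII and a deleted gene of the study, was in the upper-middle list and 56.5 kb from a domain. All 3 histone genes of VII were in the highest list. The linker histone gene hH1 (546038 to 548166) lay 19.8 kb from a domain, hH2A 3.49 kb, and a domain reached into hH2B (2490608 to 2492335) by 235 bp, less than the 300 bp step of the domain grid.

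Of the light and clock genes on VII, 4 were in the highest list and 1 in the lower-middle list. The photoreceptor and transcription factor gene wc-1 (2767393 to 2773846) lay 23.1 kb from a domain. The clock gene frq (3131640 to 3136464) lay 116 kb away, fwd-1, whose F-box protein directs the turnover of the frq product, 63.9 kb, and csp-2, a gene of conidial separation, 6.34 kb. The opsin gene nop-1 (1316548 to 1318623) was in the lower-middle list, and a domain covered 423 bp of it.

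The quinic acid cluster, 7 neighbouring genes for the use of quinate as a carbon source, lies left of the longest domain, and none of its genes was in the highest list. The activator gene qa-1F (2040689 to 2043712) was in the lower-middle list and the repressor gene qa-1S in the upper-middle list, with the permease gene qa-Y. The dehydroquinase gene qa-2 was in the lower-middle list. The lowest list held qa-3, which encodes quinate dehydrogenase, qa-4, which encodes dehydroshikimate dehydratase, and qa-X (2056938 to 2058103). qa-Y and qa-3 overlap each other, so their reads may not be separable. Distance to a domain ran from 21.2 kb at qa-1F to 6.80 kb at qa-X.

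The other matched genes of VII were spread over the lists. In the highest list stood oli, for the proteolipid subunit of mitochondrial ATP synthase (71.6 kb from a domain), for, the serine hydroxymethyltransferase gene (149 kb), and un-10, an initiation factor gene (35.0 kb). In the upper-middle list were arg-10, the argininosuccinate lyase gene (83.2 kb), and met-7, of methionine synthesis (6.86 kb, in the right flank of the longest domain). In the lowest list were ars-1, the arylsulfatase gene (57.5 kb), and sms-2, the Argonaute gene of meiotic silencing (14.1 kb).

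On VII, genes with a symbol stood more often in the highest list than the rest. Of 111 such genes on VII, 58 were in the highest list (52.3%) and 11 in the lowest (9.91%), against 18.6% and 34.8% of the 936 genes known by locus tag alone. The split was made on VII only, so whether it is particular to VII was not tested. On the left side 9 of 48 genes with a symbol were in the lowest list and on the right side 2 of 63. By families of symbols with at least 3 members, chosen after the names were seen, all 4 nuo genes (nuo14, nuo20.1, nuo40 and nuo21.3b, subunits of respiratory complex I) were in the highest list. Of the 4 proteasome genes with an rpn symbol, rpn-2, rpn-9 and rpn-3 were in the highest list and rpn-12 in the upper-middle list. The 12 glycoside hydrolase genes (gh) were spread, 1 in the lowest, 2 in the lower-middle, 5 in the upper-middle and 4 in the highest list. The 3 mig genes stood 1 each in the lower-middle, upper-middle and highest lists. Of 3 stk genes, 1 was in the upper-middle and 2 in the highest list. The other families, the quinic acid cluster and the histone genes, are given above. Median gene length on VII was 1221 bp in the lowest list and 2627.5 bp in the highest, and elsewhere it was 1224 bp and 2728 bp. The expression measure is not given, so whether it corrects for gene length is not known. The 5 longest genes of VII were all in the highest list. The polyketide synthase gene pks-4 (1080398 to 1091850, 11453 bp) led them, and it starts 697 bp from the second longest domain. NCU05837, NCU04531, NCU08132 and NCU05803 followed, with 10885 to 8938 bp.

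Genes other than protein-coding ones were taken from the RefSeq table and have no expression list. They were counted on VII only, so whether these counts differ from those of the other linkage groups was not tested. Of 70 tRNA genes on VII, 48 lay left and 22 right of the start of the longest domain, and 3 overlapped a domain (4.29%). The left side is 2134.5 kb long and the right side 1771.5 kb. The only annotated features wholly inside the longest domain were 2 tRNA pseudogenes, NCU15311 at 2206827 to 2206913 and NCU15310 at 2215960 to 2216046. None of the 4 rRNA genes and 1 of 16 other noncoding RNA genes overlapped a domain.

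Within 200 kb of the left end of VII, 14 of 53 genes were in the lowest list (26.4%, interval 16.4 to 39.6), and within 200 kb of the right end 21 of 51 (41.2%, 28.8 to 54.8). These intervals overlap. Both ends together had 33.7% of genes in the lowest list, against 32.0% of the 943 genes further in. The highest list made up 21.2% of genes near the ends and 22.3% of those further in.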

How the data were processed

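The sources used here are 5 interval files of the whole series and the labels. The authors deposited 4 gene lists, ranked by expression in wild type, and the H3K9me3 domains of wild type in 1 file. Of these only the start and end positions, which have no unit of expression or signal, and the list names were used (score and strand are the same in every gene row). Domains come from SICER, per the deposited list's name and the submitters' processing notes, which also name Bowtie2, HOMER and deepTools. The sources used here give no versions, settings, expression measure or depth. Domain lengths on VII were multiples of 300 bp for all 46 domains. Another 10 rows of that file were empty. A segment of VI is inverted between the files and the RefSeq table, which does not touch VII.

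Counts, medians and overlaps were computed with Python 3.11.15 and pandas 2.3.3, and Wilson 95% intervals with statsmodels 0.14.6. Overlap of gene and domain meant 1 bp or more in common, and genes were placed in windows, sides and flanks by their midpoint. Distances count the bases between gene and domain. The members and gene lists were chosen with earlier results of these data known. Named genes were the listed genes on VII, the 5 nearest the longest domain on each side, those with at least 50% or among the 10 with most bases in a domain, run ends, the 5 longest genes and the outermost genes; others were chosen after their values were seen. No test was run. No sequence is shown, as none was used here.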

Additional observations from a re-analysis of the deposited data

How the results depend on the processing

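Of 80 alternatives over 25 values, 67 kept the direction and stayed within a set range of the value given. For a share the range was its Wilson interval. For a difference between shares it was the Wilson interval of the VII or left-side share alone, moved to lie around the difference. That range leaves out the counting error of the other share. For other values it was 1.5 times. Many of the 80 only left out 1 of the other linkage groups, which cannot change the value of VII. All of these were among the 67, so the count is no measure of robustness. For overlap with domains, VII minus the other linkage groups was 1.64 percentage points and 0.0432 with at least 50% of the gene required. The difference in domain cover was 4.58 percentage points and 0.687 without the longest domains. The difference in genes per Mb outside domains was 23.8 and 11.4 with locus tags below NCU10000. For the median distance, highest minus lowest list on VII, the 0.32 kb became 2.73 kb without overlapping genes, 3.93 kb on the right side alone and reversed to -1.38 kb with domains of at least 3000 bp. Window extremes moved with window length by construction. The lowest share of lowest-list genes was 5.48% at 250 kb, 0% at 100 kb and 16.9% at 500 kb, the highest was 50% and 66.7% at 100 kb, and the lowest share of highest-list genes was 10.3% and 3.85% at 100 kb. The lowest density was 24 genes per Mb, 0 at 100 kb and 94 at 500 kb, and the lowest cover 0% and 4.5% at 500 kb. The cause of the other changes was not tested. The comparison without the longest domains, the side-wise distances, leaving out ends when VII is set against the other linkage groups, and leaving out linkage groups for overlap and density were added after the data were examined. Depth cannot be assessed from interval lists. No paired analysis was possible because the lists carry no replicates and no result comes from a test.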
